A study of Mus musculus with 4 samples.

Results

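The cyclins, cyclin-dependent kinases and kinase inhibitors of the G1 phase were followed as 10 genes chosen by symbol, out of 23334 gene rows in the tables, and all 10 were found. They comprise the D-type cyclins Ccnd1, Ccnd2 and Ccnd3, the E-type cyclins Ccne1 and Ccne2, the kinases Cdk2, Cdk4 and Cdk6, and the inhibitors Cdkn1b and Cdkn1c. RNA was sequenced from cells sorted from Vegfr3::YFP reporter mice on the C57BL/6 background, in which yellow fluorescent protein reports on Vegfr3, the gene (Flt4 in the table) of a receptor for the growth factor VEGF-C. In the labels, YFP-positive cells are neural stem cells and YFP-negative cells neurons of the subgranular zone, the layer of the hippocampal dentate gyrus in which new neurons arise. Both populations came from 2 groups of 16 mice of unstated age and were kept in culture for 18 h. VEGF-C was added at 50 ng/ml to the cultures called treated below and left out of those called untreated, and cells of the same kind and culture were pooled across the mice. There are thus 4 groups with 1 library each. The differences below rest on single libraries with no replicates and were given no p-values.

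Growth signals reach the cell cycle through the D-type cyclins, which bind Cdk4 or Cdk6 and start the phosphorylation of the retinoblastoma protein. That releases E2F transcription factors, whose targets include the E-type cyclins, and cyclin E bound to Cdk2 then carries the cell into DNA synthesis. The inhibitors encoded by Cdkn1b and Cdkn1c bind these complexes and restrain them, and in the adult hippocampus both are known for holding stem and progenitor cells in quiescence.

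Levels are given in FPKM, here fragments scaled to transcript length and by 1 factor per library. Being per length, they can be compared between genes. FPKM followed the normalized counts, so the levels were not scaled to equal library totals. Those counts summed to 1.85e+07 (untreated YFP-positive), 1.23e+07 (treated YFP-positive), 1.18e+07 (untreated YFP-negative) and 1.69e+07 (treated YFP-negative). The libraries held 8561957 fragments (untreated YFP-positive), 60326390 (treated YFP-positive), 16275372 (untreated YFP-negative) and 8390511 (treated YFP-negative), as implied by the equal steps of the normalized counts. These fragments are an estimate: 6 to 12 values per library lay above 0 but below 1 step, although those of the 10 genes were whole to within 0.0413 step. Gene detection split them differently from the labels: 9669 and 9556 genes stood above 0 in the untreated YFP-positive and the treated YFP-negative library, against 13528 and 13132 in the other 2. The first pair is called the libraries of low detection below, and each of the 4 planned comparisons sets a library of low detection against one of high detection. Of 3281 genes at 5 to 15 FPKM in the treated YFP-positive library, 21.5% were listed at 0 in the untreated one, and of 3232 such genes in the untreated YFP-negative library 21.3% were listed at 0 in the treated one. A listed 0 can be a failed estimate, so neither a fold nor a log2 difference of a single gene is given against it. The exception is the flagged gap of Ccnd3 in the closing observations. Medians of gene lists and of all genes do include such genes. The label of the YFP-negative cells did not match their markers: 10 oligodendrocyte genes summed to 8716 and 12047 FPKM there, and 12 neuron genes to 53.3 and 67.7 FPKM, of which 7 and 5 reached 1 FPKM, with Slc17a7, a glutamate transporter gene of excitatory neurons, listed at 0. The population is therefore called by its sort. In the YFP-positive libraries, 10 astrocyte genes summed to 1088 and 941 FPKM and 14 stem cell genes to 3515 and 2118 FPKM. Markers of other cell types were present there too: the oligodendrocyte genes summed to 898 and 887 FPKM and the neuron genes to 25.1 and 90.3 FPKM. The 8 oligodendrocyte precursor genes summed to 306 and 38.4 FPKM there, and to 172 and 560 FPKM in untreated and treated YFP-negative cells. In such pools, fewer cells of a type and less RNA per cell cannot be told apart. Intervals are 95% exact Poisson intervals on the implied fragments and cover counting error only.

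Ccnd2, the cyclin D2 gene, was abundant in YFP-positive cells and scarce in YFP-negative cells. It lies on chromosome 6 from 127125162 to 127152193 on the minus strand (mm10, ENSMUSG00000000184.12). Its level was 207 FPKM (interval, 203 to 212) in untreated YFP-positive cells and 104 FPKM (103 to 105) in treated ones. In YFP-negative cells it was 6.38 FPKM (5.92 to 6.84) untreated and, treated, 0.0705 FPKM (0.0145 to 0.206), from only 3 fragments. Both YFP-positive libraries thus stood above both YFP-negative ones. The YFP-positive level was 32.5-fold higher than the YFP-negative one in untreated cells (interval, 30.2 to 35.1) and 1472-fold higher in treated cells (503 to 7131, a range set by the 3 fragments). The sums of astrocyte, stem cell and progenitor markers moved with Ccnd2 between the populations. In untreated and treated YFP-negative cells the astrocyte genes summed to 55.0 and 62.9 FPKM, with 4 and 2 of the 10 at 1 FPKM or more, and the stem cell genes to 421 and 983 FPKM, with 11 and 6 of 14. In YFP-positive cells these counts were 9 and 10 for astrocyte and 11 and 12 for stem cell genes. The 10 genes of intermediate progenitors and neuroblasts summed to 558 and 453 FPKM in untreated and treated YFP-positive cells, against 79.1 and 81.9 FPKM in YFP-negative cells, with 9, 10, 6 and 4 of them at 1 FPKM or more. Single stem cell markers went the other way, among them Nes at 39.0 and 43.2 against 82.3 and 78.0 FPKM and Lpar1 at 2.43 and 47.7 against 86.0 and 58.4 FPKM. Sox2 did so in treated cells only, at 114 and 42.1 against 31.2 and 58.0 FPKM. Single genes also made up much of the sums. Vim stood at 2333 and 1215 against 184 and 691 FPKM. S100b, which gave most of the YFP-negative astrocyte sums, was at 34.2 and 26.4 against 44.7 and 61.0 FPKM. The part of these cell types in the Ccnd2 difference was not tested.

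Ccnd1, the cyclin D1 gene, was present in all 4 libraries. It spans 144929931 to 144939925 on the minus strand of chromosome 7 (ENSMUSG00000070348.5). It stood at 98.6 FPKM (94.8 to 103) in untreated and 63.9 FPKM (62.9 to 64.8) in treated YFP-positive cells, and at 27.7 FPKM (26.4 to 28.8) in untreated and 33.8 FPKM (31.7 to 36.1) in treated YFP-negative cells. The YFP-positive libraries were again the higher ones, by 3.56-fold untreated (3.37 to 3.79) and 1.89-fold treated (1.77 to 2.02). In GENCODE M21, 23.4% of the exonic bases of Ccnd1 also belong to LTO1 on the other strand, which the table lists as Oraov1 at 79.8, 4.74, 10.1 and 0.659 FPKM in the same order, and reads of the shared bases cannot be assigned by strand in these unstranded libraries.

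Ccnd3, the cyclin D3 gene (chromosome 17, 47505051 to 47599691, plus strand, ENSMUSG00000034165.16), followed gene detection and not the sort. It was at 9.85 FPKM (9.35 to 10.4) in treated YFP-positive cells and at 6.07 FPKM (5.30 to 6.89) in untreated YFP-negative cells. It was listed at 0 in both libraries of low detection, where 3 fragments would have been worth 0.234 and 0.218 FPKM. Those limits lie far below its levels in the other 2 libraries.

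Because shares within a library do not depend on how libraries are scaled, the makeup of the D-type cyclins was compared as well. Ccnd2 supplied 67.8% of the summed D-type cyclin FPKM in untreated and 58.4% in treated YFP-positive cells, but 15.9% in untreated and 0.208% in treated YFP-negative cells. Ccnd1 supplied 32.2%, 36.0%, 69.0% and 99.8% in the same order, and was the most abundant of the 3 genes in both YFP-negative libraries. Ccnd3 reached 5.55% and 15.1% in the libraries of high detection. The sum itself was 306 and 177 FPKM in untreated and treated YFP-positive cells, and 40.1 and 33.9 FPKM in their YFP-negative counterparts.

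**Figure D1:**
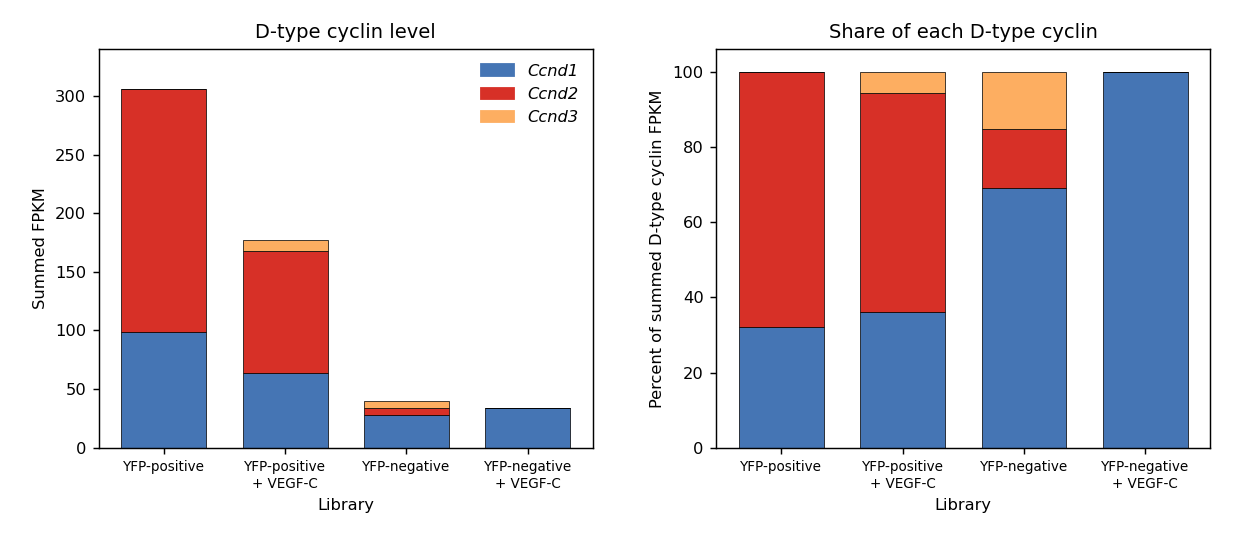
The left panel stacks the FPKM of Ccnd1, Ccnd2 and Ccnd3 in each of the 4 libraries (1 library per group, no error bars), and the right panel gives each gene as a percent of that sum. Ccnd2 is the largest part in both YFP-positive libraries, at 67.8% and 58.4%, and Ccnd1 in both YFP-negative libraries, at 69.0% and 99.8%.

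The E-type cyclins were near the limit of detection outside the treated YFP-positive library. Ccne1, the cyclin E1 gene (chromosome 7, 38097984 to 38107534, minus strand, ENSMUSG00000002068.16), was at 6.63 FPKM (6.20 to 7.08, from 894 fragments) in that library and listed at 0 in the other 3. In the untreated YFP-negative library, which has high detection, 3 fragments would have been worth 0.0792 FPKM, and in the libraries of low detection 0.237 and 0.221 FPKM. Ccne2, the cyclin E2 gene (chromosome 4, 11191351 to 11204779, plus strand, ENSMUSG00000028212.16), gave 0.214 FPKM (0.157 to 0.286) in treated YFP-positive cells, 0.0498 FPKM from 3 fragments in untreated YFP-negative cells, and a listed 0 in both libraries of low detection. It did not reach 1 FPKM anywhere. In GENCODE M21, 17.4% of its exonic bases are shared with Ints8 on the other strand, which was at 5.27 to 90.2 FPKM. In treated YFP-positive cells Ccne1 made up 96.9% of the summed E-type cyclin FPKM.

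**Figure D2:**
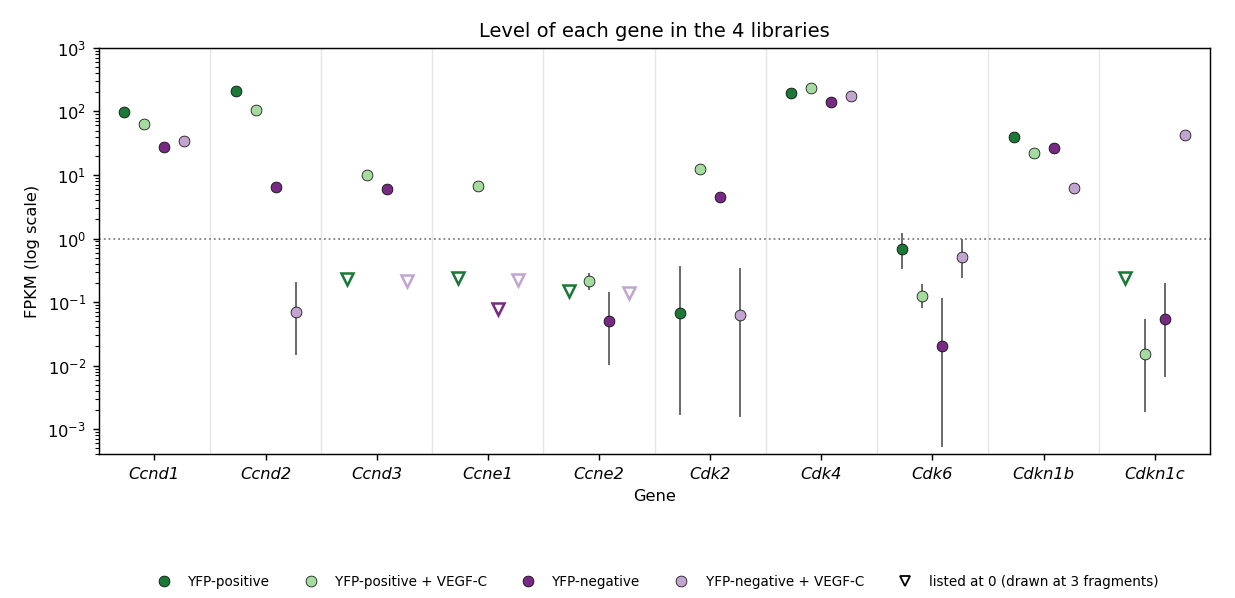
Points give the FPKM of each gene in each library on a log axis (1 library per group), and bars give 95% exact Poisson intervals of the fragments. Open triangles mark values listed at 0 and stand at the FPKM that 3 fragments would be worth. Cdk4 lies between 142 and 233 FPKM in all 4 libraries, whereas Ccnd2 spans 0.0705 to 207 FPKM and Cdkn1c reaches 41.8 FPKM in 1 library only.

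Among the kinases, Cdk4, a partner of the D-type cyclins, had the highest mean level of the 10 genes and the smallest range. It was at 191 FPKM (182 to 201) in untreated and 233 FPKM (229 to 235) in treated YFP-positive cells, and at 142 FPKM (136 to 146) in untreated and 178 FPKM (170 to 187) in treated YFP-negative cells. Its highest level was 1.64 times its lowest. Among 3663 genes above 0 everywhere whose mean was 20 FPKM or more, the median of that ratio was 5.55, and 3.41% of them had a smaller one than Cdk4. The same ratio was 3.56 for Ccnd1, 6.32 for Cdkn1b and 2942 for Ccnd2, and 99.5% of the genes had a smaller ratio than Ccnd2. Cdk4 lies on chromosome 10 from 127063534 to 127067920 on the plus strand (ENSMUSG00000006728.12), and 19.7% of its exonic bases are shared with Tspan31 on the other strand, which was at 25.2 to 101 FPKM.

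**Figure D3:**
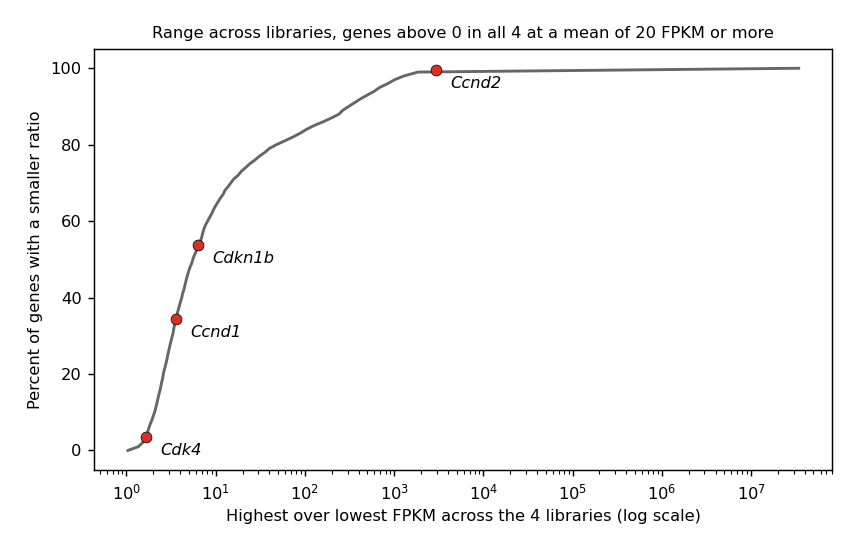
The curve gives, for 3663 genes above 0 in all 4 libraries at a mean of at least 20 FPKM, the percent of genes whose highest FPKM over lowest FPKM across libraries is below the value on the log x axis. Red points mark the 4 genes of the family in that set. Cdk4 stands at 1.64 near the bottom of the curve and Ccnd2 at 2942 near its top.

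Cdk2, the partner of the E-type cyclins, differed far more between libraries. It was at 12.4 FPKM (11.9 to 13.0) in treated YFP-positive cells and at 4.53 FPKM (3.92 to 5.18) in untreated YFP-negative cells. Both libraries of low detection held 1 fragment of it, which gave 0.0664 FPKM (0.00168 to 0.371) in untreated YFP-positive and 0.0619 FPKM (0.00157 to 0.346) in treated YFP-negative cells. Like Ccnd3, it was higher in both libraries of high detection. Cdk2 lies on chromosome 10 from 128697939 to 128705031 on the minus strand (ENSMUSG00000025358.16).

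Cdk6, the other partner of the D-type cyclins, stayed under 1 FPKM in every library. It gave 0.673 FPKM (0.336 to 1.21) in untreated and 0.127 FPKM (0.0794 to 0.192) in treated YFP-positive cells, and 0.0206 FPKM from 1 fragment in untreated and 0.513 FPKM (0.235 to 0.976) in treated YFP-negative cells. Its gene lies on chromosome 5 from 3341485 to 3531008 on the plus strand (ENSMUSG00000040274.11). It supplied 0.0145% to 0.351% of the summed FPKM of Cdk4 and Cdk6.

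RefSeq promoters on GRCm38.p6 were found for 6 of the 10 genes, and the 250 bases before the start are shown for Cdk4 and Cdk2, the 2 kinases above 1 FPKM, because they differ in the motifs they hold. Capitals mark every match on either strand to CACGTG, the E-box that Myc proteins are known to bind, or to 4 forms of the E2F motif (TTTCCCGC, TTTGGCGC, TTTCGCGC and TTTGCCGC). The Cdk4 window is chr10:127063285-127063534 on the plus strand, and the Cdk2 window is chr10:128705052-128705301 on the minus strand.
Cdk4: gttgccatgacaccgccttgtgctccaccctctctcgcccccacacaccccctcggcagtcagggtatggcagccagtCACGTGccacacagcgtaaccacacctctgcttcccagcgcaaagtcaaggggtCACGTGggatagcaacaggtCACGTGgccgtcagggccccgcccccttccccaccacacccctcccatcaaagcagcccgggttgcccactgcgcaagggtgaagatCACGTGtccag
Cdk2: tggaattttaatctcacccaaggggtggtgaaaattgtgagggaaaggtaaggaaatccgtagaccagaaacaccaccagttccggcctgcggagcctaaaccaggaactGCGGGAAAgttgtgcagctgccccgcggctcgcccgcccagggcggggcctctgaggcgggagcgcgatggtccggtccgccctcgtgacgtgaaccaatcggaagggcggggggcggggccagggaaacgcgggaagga

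The Cdk4 window held CACGTG 4 times, at 172, 118, 98 and 11 bases before the start, and no E2F form. At least 3 copies were found in 20 of the 32851 RefSeq promoter windows of that length (0.0609%), and at least 1 copy in 6.02%. The Cdk2 window held TTTCCCGC once, on the reverse strand as GCGGGAAA, 140 bases before the start, and no CACGTG. That form was found in 0.895% of all windows and any of the 4 forms in 1.86%. The windows of Ccnd3 (2 promoters), Ccne1 and Cdkn1b held none of the 5 motifs, and that of Cdk6 held CACGTG once. These matches describe the letters of the windows and are not evidence of binding.

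The inhibitors Cdkn1b and Cdkn1c stood apart in treated YFP-negative cells. Cdkn1b, which encodes the inhibitor known as p27 (chromosome 6, 134920401 to 134925513, plus strand, ENSMUSG00000003031.14), was at 39.3 FPKM (36.3 to 42.5) in untreated and 22.0 FPKM (21.3 to 22.7) in treated YFP-positive cells. In YFP-negative cells it was at 26.8 FPKM (25.3 to 28.2) untreated and 6.22 FPKM (5.10 to 7.54) treated, its lowest level. Cdkn1c, which encodes the inhibitor known as p57 and is expressed from the maternal allele (chromosome 7, 143458339 to 143461050, minus strand, ENSMUSG00000037664.13), went the other way. It was at 41.8 FPKM (38.5 to 45.6, from 554 fragments) in treated YFP-negative cells. Elsewhere it was listed at 0 (untreated YFP-positive), at 0.0152 FPKM (treated YFP-positive) or at 0.0545 FPKM (untreated YFP-negative), the last 2 from 2 fragments each.

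The library with high Cdkn1c is one of low detection, and other cell type markers stood apart in it too. In untreated and treated YFP-negative cells, 12 microglia genes summed to 307 and 834 FPKM, but not together: of 10 measured, 5 were higher in treated cells and 3 lower. Tyrobp was at 98.0 and 451 FPKM, whereas the complement gene C1qb was at 61.2 and 0.437 FPKM, and C1qa and C1qc, at 14.5 and 19.8 FPKM untreated, were listed at 0 in treated cells. The 8 genes of ependyma and choroid plexus summed to 44.9 and 200 FPKM, nearly all from the choroid plexus gene Ttr, while 7 of these 8 genes were listed at 0 in treated cells. Endothelial genes summed to 12.8 and 3.28 FPKM and mural cell genes to 37.7 and 2.12 FPKM. The part of these cells in the Cdkn1c level was not tested. In GENCODE M21, 30.7% of the exonic bases of Cdkn1c are shared with an antisense gene, Gm44732, for which no value was used here.

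Cdkn1a, the third gene of the family, which encodes the inhibitor known as p21, was far above both at 1014 and 612 FPKM in untreated and treated YFP-positive cells, then 867 and 1483 FPKM in untreated and treated YFP-negative cells. Its share of the summed FPKM of Cdkn1a, Cdkn1b and Cdkn1c was nearly constant, at 96.3%, 96.5%, 97.0% and 96.9% in that order. Cdkn1b supplied 3.73%, 3.48%, 3.00% and 0.406%, and Cdkn1c 2.73% in treated YFP-negative cells. The summed D-type cyclins stood at 7.78 and 8.05 times the sum of Cdkn1b and Cdkn1c in untreated and treated YFP-positive cells, and at 1.49 and 0.705 times in YFP-negative cells. Those ratios leave out Cdkn1a. With it, the summed inhibitors were at 1053, 634, 894 and 1531 FPKM in the same order, above the summed D-type cyclins in every library. Against the sum of Cdk4 and Cdk6, the same cyclins stood at 1.59 and 0.763 times in YFP-positive cells and 0.283 and 0.190 times in YFP-negative cells.

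The first comparison asked how YFP-positive cells differ from YFP-negative cells when neither is treated. Differences are log2((FPKM + 1) / (FPKM + 1)) from here on, and a gene was measured if either library held it at 1 FPKM or more, and was called higher or lower from 2-fold upwards. A gene listed at 0 in 1 library can pass that limit too, since 1 FPKM is added to both values; it is then counted and named without a difference. Of 6 measured genes, Ccnd2 (4.82) and Ccnd1 (1.80) were higher in YFP-positive cells, while Cdk2 (-2.38) and Ccnd3 (listed at 0 against 6.07 FPKM) were lower. Cdkn1b (0.54) and Cdk4 (0.43) were neither. These 4 of 6 genes past 2-fold compare with 76.8% of the 11265 genes measured (30.1% higher and 46.7% lower), so the count itself is not a result about the family. The median of all genes was -0.66, and after re-centring on it Cdkn1b (1.19) and Cdk4 (1.09) counted as higher too, while with upper-quartile scaling both turned negative (-0.09 and -0.21). Genes at a mean of at least 20 FPKM, a set that holds both, had a median of 0.99. Ccnd2, Ccnd1, Ccnd3 and Cdk2 kept their direction under each scaling tried.

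When both populations were treated, 8 genes were measured. Ccnd2 (6.61), Cdk2 (3.66) and Cdkn1b (1.67) were higher in YFP-positive cells, as were Ccnd3 (9.85 FPKM) and Ccne1 (6.63 FPKM) against a listed 0, and Cdkn1c was lower (-5.40). Ccnd1 (0.90) and Cdk4 (0.38) were neither. Cdk4 became -0.31 after re-centring, whereas with upper-quartile scaling Ccnd1 (1.53) and Cdk4 (1.03) both counted as higher. Of all 11229 genes measured, 74.6% were past 2-fold (47.0% higher and 27.6% lower), with a median of 0.69, which is close to the 6 of 8 here. Of the 5 higher genes, Cdk2 and Ccnd2 rested on 1 and 3 fragments in treated YFP-negative cells, so that 1 of the 5, Cdkn1b, had more than 3 fragments on both sides. Cdkn1b in turn fell just short of 2-fold after re-centring (0.98) and with 10 FPKM added (0.98).

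**Figure D4:**
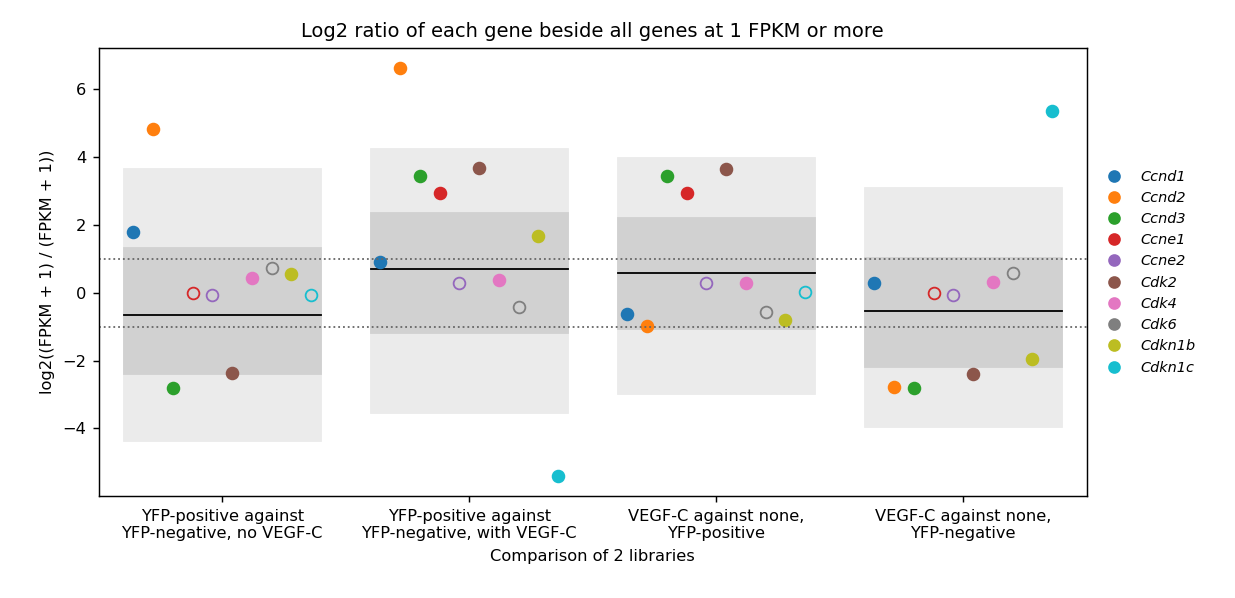
Each point is the log2((FPKM + 1) / (FPKM + 1)) of a gene in a comparison of 2 libraries, filled where the gene was measured and open where it was not. Grey boxes give the 5th to 95th (light) and 25th to 75th (dark) percentiles of all genes measured, black lines their medians and dotted lines the 2-fold limits. Where a measured gene was listed at 0 in 1 of the libraries (Ccnd3 in all 4 comparisons, Ccne1 in 2), the added 1 FPKM sets the height of its point. Ccnd2 lies above the light box in both comparisons of the populations, at 4.82 and 6.61, and Cdkn1c lies outside it at -5.40 and 5.34.

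Since each of those pairs joins libraries of unlike detection, the 2 pairs of like detection were also formed, a choice made after the data were seen. In them the sort and VEGF-C differ together and cannot be told apart. Between the libraries of high detection, Ccnd2 (3.83), Cdk2 (1.28), Ccnd1 (1.18) and Ccne1 (against a listed 0) were higher in treated YFP-positive than in untreated YFP-negative cells, and Ccnd3 (0.62), Cdk4 (0.71) and Cdkn1b (-0.27) were neither. All genes measured there had a median of 0.05, with 52.5% past 2-fold (26.8% higher and 25.8% lower). Between the libraries of low detection, Ccnd2 (7.60), Cdkn1b (2.48) and Ccnd1 (1.52) were higher and Cdkn1c (listed at 0 against 41.8 FPKM) was lower in untreated YFP-positive than in treated YFP-negative cells, and Cdk4 (0.10) was neither. Here 77.3% of genes were past 2-fold (39.7% higher and 37.6% lower). Ccnd2 was thus higher on the YFP-positive side in all 4 pairings of a YFP-positive with a YFP-negative library, and the level of Ccnd1 was higher in all 4 as well.

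The next comparison set treated against untreated YFP-positive cells. Cdk2 (3.66), Ccnd3 (9.85 FPKM) and Ccne1 (6.63 FPKM) were higher in treated cells, against 1 fragment, a listed 0 and a listed 0 in untreated ones. Ccnd2 lay at the 2-fold limit with -0.99, at 1.998-fold less FPKM in treated cells (interval, 1.95 to 2.05). Cdkn1b (-0.81) and Ccnd1 (-0.62) were also lower in level, Cdk4 was slightly higher (0.28), and all 3 were within 2-fold. Of 11040 genes measured, 45.5% were higher and 26.3% lower (median 0.59), and 71.7% were past 2-fold against 3 of 7 here. Relative to that median, Ccnd2 (-1.58), Cdkn1b (-1.40) and Ccnd1 (-1.21) all passed 2-fold as lower. However, genes at a mean of at least 20 FPKM, a set that holds these 3, had a median of -0.84 in this pair. That is near the values of the 3 genes before re-centring. With upper-quartile scaling Ccnd2, Cdkn1b and Ccnd1 came to -0.34, -0.17 and 0.03. The direction of Ccnd1 therefore depended on the scaling. VEGF-C and the step from low to high detection cannot be told apart in this pair.

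In YFP-negative cells the order of detection is the reverse, since the treated library is the one of low detection. Ccnd2 (-2.78), Cdk2 (-2.38), Cdkn1b (-1.94) and Ccnd3 (listed at 0 against 6.07 FPKM) were lower in treated cells and Cdkn1c was higher (5.34). Ccnd1 (0.28) and Cdk4 (0.33) were within 2-fold, and both turned negative with upper-quartile scaling (-0.33 and -0.30). The 5 of 7 genes past 2-fold compare with 70.7% of 10968 genes (25.3% higher and 45.3% lower, median -0.54). In linear terms Cdkn1b was 4.31-fold lower (3.51 to 5.28), Ccnd2 90.5-fold lower (30.8 to 439) and Cdkn1c 767-fold higher (213 to 6390).

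Set side by side, the VEGF-C differences were opposite for Cdk2 (3.66 in YFP-positive and -2.38 in YFP-negative cells), with 1 fragment on the lower side each time. Those of Ccnd3 were opposite too, each against a listed 0. For Cdk4 they were nearly equal (0.28 and 0.33), although scaling moved their gap from -0.04 to -1.17 (re-centred) or 1.24 (upper quartile). In both populations the difference was negative for Ccnd2 (-0.99 and -2.78) and Cdkn1b (-0.81 and -1.94). Among genes at 1 FPKM or more in at least 1 library, a gap of 2-fold or more between the responses was seen for 6 of 8 genes of the family and for 79.1% of all 12769.

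Genes that act on or after these regulators were read from lists drawn up by symbol, with genes listed at 0 in 1 library counted as above. Their counts stand beside the all-gene shares given with each comparison, which were 45.5% higher and 26.3% lower for treatment in YFP-positive cells and 25.3% and 45.3% in YFP-negative cells. For YFP-positive against YFP-negative cells these shares were 30.1% higher and 46.7% lower untreated, and 47.0% and 27.6% treated. Among other inhibitors of cyclin-dependent kinases, 3 of 5 measured genes were higher in treated than in untreated YFP-positive cells and 1 was lower. The 3 higher genes, Cdkn2b, Cdkn2d and Cdkn3, were all listed at 0 in untreated YFP-positive cells, so that count rests on listed 0 values. Cdkn2c, which inhibits Cdk4 and Cdk6, was the lower one, at 21.3 against 52.8 FPKM. It was at 17.9 FPKM in untreated and listed at 0 in treated YFP-negative cells. In YFP-negative cells, 1 of 3 was higher and 1 lower. Between the populations, 1 of 3 was higher and 1 lower in YFP-positive cells when untreated, and 3 of 5 were higher and 2 lower when treated.

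The retinoblastoma and E2F family showed no common direction between treated and untreated YFP-positive cells, with 3 of 9 measured genes higher and 4 lower (median -0.32). E2f5 was higher, at 38.3 against 4.18 FPKM, and so was Tfdp1, the dimer partner of E2F proteins, at 23.6 against 3.21 FPKM. E2f1, an activator of G1/S genes, was lower at 0.683 against 12.5 FPKM, and Rbl1, the p107 relative of the retinoblastoma protein, at 0.156 against 4.34 FPKM. In YFP-negative cells, 4 of 10 were higher and 4 lower when treated, and E2f1 was at 0.0620 FPKM untreated and 47.5 FPKM treated. Between the populations, 6 of 10 were higher and 3 lower in untreated YFP-positive cells, and 5 of 9 and 3 in treated ones.

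The median of the genes that E2F proteins are known to activate at G1/S lay on the side of high detection in each comparison. Treatment went with 15 of 22 measured genes higher and 4 lower in YFP-positive cells (median 2.85), whereas 1 of 17 was higher and 10 lower in YFP-negative cells (median -1.74). Among untreated cells, 3 of 19 were higher and 10 lower on the YFP-positive side (median -1.06), and among treated cells 16 of 21 were higher and 0 lower (median 3.08). Rpa2, a subunit of the protein that coats single-stranded DNA, was at 0.0872 FPKM in untreated and 21.3 FPKM in treated YFP-positive cells, and Fen1, the flap endonuclease, at 0.0727 and 20.4 FPKM. Tk1, a thymidine kinase, was at 7.33 and 0.181 FPKM, and Pcna, the sliding clamp of replication, at 273 and 56.2 FPKM. Single genes did not all follow the median: in untreated and treated YFP-negative cells Rpa2 was at 2.05 and 38.7 FPKM, Fen1 at 20.9 and 0.135 FPKM and Pcna at 146 and 85.9 FPKM, and Tk1 was listed at 0 in both. Each of the 4 medians has the sign of the all-gene median of its comparison, and Cdk2 and Ccnd3 had the same signs in all 4.

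The cyclins and kinases of S phase and mitosis were higher in treated YFP-positive cells for 6 of 8 measured genes and lower for 2, where 45.5% of all genes were higher and 26.3% lower. Ccna2, cyclin A2, which is also on the list of E2F targets, was at 0.107 and 8.32 FPKM and Aurka, a mitotic kinase, at 0.0810 and 6.67 FPKM. Ccnb1, cyclin B1, went the other way, at 127 and 8.11 FPKM, as did the kinase Plk1 at 31.1 and 14.1 FPKM. In YFP-negative cells 3 of 5 were higher and 1 lower. Between the populations, 2 of 5 were higher and 3 lower in untreated YFP-positive cells, and 5 of 8 and 2 in treated ones.

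Genes that regulate the kinases or remove cyclins and inhibitors had higher medians on the YFP-positive side than all genes. These were 0.25 untreated and 2.32 treated, against -0.66 and 0.69. The list does not separate genes that promote kinase activity from genes that restrain it, so its counts give no direction of that activity. Treatment went with 9 of 18 higher and 4 lower in YFP-positive cells (all genes, 45.5% and 26.3%), and with 3 of 15 higher and 9 lower in YFP-negative cells (25.3% and 45.3%). Cks1b, a small protein that helps the ubiquitin ligase subunit Skp2 to recognise the Cdkn1b protein, was at 0.237 FPKM in untreated and 59.9 FPKM in treated YFP-positive cells. In YFP-negative cells it was at 13.9 FPKM untreated and listed at 0 treated. Mnat1, a subunit of the kinase that activates Cdk2 and Cdk4, was at 0.0603 FPKM in untreated and 10.5 FPKM in treated YFP-positive cells. The ubiquitin ligase scaffolds Cul4a and Cul4b were lower, at 11.8 against 103 FPKM and 6.69 against 37.2 FPKM. On the YFP-positive side, 4 of 16 were higher and 7 lower among untreated cells (all genes, 30.1% and 46.7%). Among treated cells 12 of 18 were higher and 2 lower (47.0% and 27.6%).

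Genes that link growth signals to the D-type cyclins were higher in untreated YFP-positive than YFP-negative cells for 12 of 14 genes and lower for 0 (median 1.73, against -0.66 for all genes). The list does not separate genes that promote these cyclins from genes that restrain them, so the count gives no direction of growth input. The higher genes include Gsk3b (135 against 29.1 FPKM) and Foxo1 (15.3 against 4.75 FPKM). Among treated cells, 7 of 17 were higher and 5 lower (median 0.84, against 0.69). Genes at a mean of at least 20 FPKM had medians of 0.99 untreated and -0.79 treated. Treatment went with 4 of 17 higher and 6 lower in YFP-positive cells and 4 of 14 higher and 1 lower in YFP-negative cells. Ctnnb1, which encodes beta-catenin, was at 187 FPKM in untreated and 64.1 FPKM in treated YFP-positive cells, the AP-1 gene Jund at 36.4 and 13.9 FPKM, the AP-1 gene Fosl1 at 17.9 and 56.7 FPKM, and Tcf7l1 at 3.12 and 4.74 FPKM.

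Genes linked to stem cell quiescence were higher in YFP-positive cells for 11 of 14 untreated and 10 of 13 treated, and lower for 2 each time. Of all genes, 30.1% were higher and 46.7% lower untreated, and 47.0% and 27.6% treated. The medians of the list were 3.66 and 2.38, against -0.66 and 0.69 for all genes. Sox9, Hes5, Hopx and Id4 are also among the stem cell markers used above, so these counts in part repeat that result. Treatment went with 2 of 14 higher and 6 lower in YFP-positive cells (all genes, 45.5% and 26.3%), and with 3 of 11 and 7 in YFP-negative cells (25.3% and 45.3%). The list medians for treatment were -0.75 and -1.21, against 0.59 and -0.54 for all genes. Genes at a mean of at least 20 FPKM had medians of -0.84 and 0.81, the first of them near that of the list. The Notch target Hes5 was at 49.6 FPKM in untreated and 0.228 FPKM in treated YFP-positive cells, and Nr2e1, a nuclear receptor of stem cells, at 43.8 and 4.21 FPKM. Btg2, an antiproliferative gene, was at 0.580 and 44.5 FPKM, and Id4 at 0.660 and 10.3 FPKM.

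Lastly, genes whose level followed the same course over the 4 libraries were sought for the most abundant gene of each role, by the Euclidean distance of centred log2(FPKM + 1) values among genes at a mean of at least 20 FPKM in libraries that all held them. With 4 points per gene, these are descriptions only. Nearest to Ccnd2 were Adk (distance 0.53), which encodes adenosine kinase, Cnn3 (0.60) and Ptrf (0.60), and Adk stood at 247 and 128 FPKM in untreated and treated YFP-positive cells, against 11.3 and 0.0811 FPKM in YFP-negative ones. Ccne1, listed at 0 in 3 libraries, has no course to match, and no neighbours are given for it. Nearest to Cdk4 were Klhl22 (0.10), Tfg (0.12) and Anxa5 (0.13), and nearest to Cdkn1b were Nadk (0.12), Zbtb11 (0.20) and Hdlbp (0.27).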

How the data were processed

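RNA was sequenced as paired reads of 75 bp from 4 pooled libraries prepared with a SMARTer Ultra Low kit for small amounts of RNA, per the labels' protocols. Per the series' design text and the submitters' processing notes, reads were mapped to mm10 with TopHat 2.0.9, which used SAMtools 0.1.18 and Bowtie 2.1.0, as unstranded and with no junctions outside the reference annotation, and Cuffdiff of Cufflinks 2.1.1 estimated expression. Which release of the reference annotation was used was not found in the labels. The authors deposited 1 table of FPKM and 1 of normalized counts, per the file headers. The deposited normalized counts were treated as a signal, since they are not whole numbers. For genes above 0 in all 4 libraries the ratio of both tables had a median coefficient of variation of 0.230%.

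Of 23361 rows, 27 with symbols turned into dates were left out (0.251% to 0.317% of normalized counts). Low values of a library rise in equal steps: 99.0% to 99.6% of those below 2000 steps were whole to within 0.05 step, and the number of steps was taken as an estimate of the fragments behind each value. The depth ranged 7.19-fold. Amplified fragments are not independent molecules. No count test was run, since each group has 1 library. Positions come from GENCODE M21 (GRCm38), in which 93.0% of the symbols were found.

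The genes and the lists (7 of pathway genes and 10 of cell type markers) were chosen with earlier results of these data known. The genes named from a pathway list are the 2 with the largest and the 2 with the smallest log2 ratio for VEGF-C in YFP-positive cells among measured genes above 0 in both libraries, except Cdkn2c and Cdkn1a, the only ones in their list. Cdkn2b, Cdkn2d, Cdkn3, Gsk3b and Foxo1 are named outside this rule, to show the limits of a count, and Sox9 and Hopx to show an overlap of lists. Alternatives were pseudocounts of 0.1 and 10 FPKM, the other table, re-centring, upper-quartile and total scaling, no filter, a mean of at least 20 FPKM and a 4-fold limit. The calling code was tested on simulated data. Python 3.11.15, pandas 2.3.3, NumPy 2.4.6, SciPy 1.17.1 and matplotlib 3.10.9 were used.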

Additional observations from a re-analysis of the deposited data

Results flagged for a closer look

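The VEGF-C differences of Ccnd3 and Cdk2 went opposite ways in the populations, with 1 library each, and the gap between them was not tested. For Ccnd3 the gap, YFP-positive minus YFP-negative, was 6.26 on the log2((FPKM + 1) / (FPKM + 1)) scale, and for Cdk2 it was 6.04. In both genes the higher values stood in the 2 libraries of high gene detection, and the lower ones were a listed 0 or rested on 1 fragment, so the added 1 FPKM largely sets the size of the gap. With 0.1 FPKM added it was 12.58 for Ccnd3 and 11.07 for Cdk2, and with 10 FPKM 1.67 and 1.69. The median gap of all 12769 genes was 1.11, and 79.1% of them had a gap of 2-fold or more.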

How the results depend on the processing

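No paired analysis was possible because each group has 1 library. Over the comparisons of YFP-positive with YFP-negative cells without and with VEGF-C, and of VEGF-C with none in YFP-positive and in YFP-negative cells, the main counts of genes past 2-fold were 4, 6, 3 and 5. A pseudocount of 10 FPKM in place of 1 lowered them to 2, 3, 1 and 2, as it shrinks genes of low level by construction, and lowered the count of the 10 genes whose VEGF-C responses were 2-fold or more apart, with no filter on low values, from 7 to 3. Of 18 calls, 18 held with 0.1 FPKM added and 8 with 10 FPKM. Requiring a mean of at least 20 FPKM gave 2, 2, 0 and 1, as 4, 4, 4 and 3 genes were left. All genes at that level had medians of 0.99, -0.79, -0.84 and 0.81. Each has the sign opposite to the median of all genes measured, on which re-centring rests. Re-centring raised the count for VEGF-C in YFP-positive cells to 6, with 3 higher and 3 lower. The gap of the VEGF-C responses of Ccnd2 reversed to -0.23 with a pseudocount of 10, from 1.79. The other alternatives left each count within 1.5 times the main one, and the pairs of like gene detection gave 4 each.

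Of 28 gene values, 28 kept their direction with both other pseudocounts and with normalized counts, 26 after re-centring, 24 with total and 23 with upper-quartile scaling. Among all genes past 2-fold, the share higher was 39.2%, 63.0%, 63.4% and 35.9% in the 4 comparisons, against 51.8%, 48.3%, 48.3% and 50.0% after re-centring and 28.9%, 73.1%, 76.2% and 23.8% with upper-quartile scaling.

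As shares of fragments, not per length, Ccnd2 made up 76.4% (95% exact binomial interval, 75.6% to 77.2%), 69.9% and 24.3% of the D-type cyclins in YFP-positive, YFP-positive with VEGF-C and YFP-negative cells, Ccnd1 23.6% and 27.9% in the first 2, and Ccnd3 2.15% and 7.47% in the last 2.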
